A study of Mus musculus with 4 samples.

Results

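The genes described here encode the cathepsins, the subunits of the proton pump that acidifies lysosomes, and the proteins that build autophagosomes, together with a few of their regulators and the main lysosomal membrane proteins. They were chosen by symbol: the cathepsins named by a letter other than Ctss, the V0 and V1 subunits of the vacuolar proton pump (V-ATPase), the numbered Atg genes, Map1lc3a, Map1lc3b and the Gabarap genes, and Lamp1, Lamp2, Becn1, Ulk1, Ulk2, Tfeb and Mcoln1. This gave 68 of the 22609 gene symbols counted. Tfeb itself was matched by no symbol, since the files list it under the older symbol Tcfeb, so it is described beside the 68. All 4 libraries came from the hippocampus of female mice that were ovariectomized 1 week before both common carotid arteries were clipped for 20 min, a model of global cerebral ischemia, and that were killed after 24 h of reperfusion. The 2 FLOX-control samples carry the loxP-flanked aromatase gene. The 2 GFAP-ARO-KO samples carry in addition Cre under the promoter of Gfap, an astrocyte gene, so that Cyp19a1 (aromatase, which makes estrogen from androgens) is deleted in astrocytes. The age of the animals and the number of animals behind each sample were not given in the sources used here, and no sham group was analysed here, so the comparison is between genotypes after ischemia.

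Lysosomes are acid compartments in which proteases, glycosidases and lipases break down what reaches them by endocytosis or autophagy. The V-ATPase pumps protons into them: its cytosolic V1 sector hydrolyses ATP and its membrane V0 sector carries the protons, and most cathepsins need the resulting low pH. In autophagy, the ULK kinases and a lipid kinase complex with Becn1 start a membrane that Atg proteins enlarge, and the small proteins of the LC3 and GABARAP families are attached to its lipids before it fuses with a lysosome. Neurons rely on this route because they do not divide, and microglia are rich in several cathepsins.

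Reads assigned to genes numbered 33495548 and 33235564 for the controls, against 34878375 and 27930696 for the knockouts. Cyp19a1, the deleted gene, gave 3 and 2 reads in the controls against 1 and 9 in the knockouts, too few to check the labels. Nothing in the labels says that samples of a group came from separate animals, so p-values measure only the spread between these libraries, which may be technical. Levels are given as CPM, read counts scaled by library size, and differences as log2 fold changes from edgeR's quasi-likelihood test over all genes. P-values were adjusted by Benjamini and Hochberg's method, and the threshold was 0.05. In this bulk tissue, fewer cells of a type and less RNA per cell cannot be told apart. Markers of hippocampal cells were present in the libraries, with none of the 10 markers each of neurons, astrocytes and oligodendrocytes at 0 reads throughout, but several moved with genotype. Across all genes tested, 11% were lower in the knockouts and 9.39% were higher. Of the microglia markers 12 of 14 were lower, and of the oligodendrocyte markers 7 of 10. Of the astrocyte markers 3 of 10 were lower with 1 higher, and of the neuron markers 3 of 10 were lower. With 1 library left out, 10 to 12, 4 to 8, 2 to 3 and 0 to 4 of these lists were lower. In the second knockout library the summed meningeal and choroid plexus markers stood apart, at 486 CPM against 133 to 179 CPM elsewhere. The same held for the summed endothelial and mural markers, at 373 CPM against 166 to 179 CPM. Within the latter list Acta2 and Tagln were at 114 and 60.3 CPM in that library, against 14.9 and 7.63 CPM in the first knockout. Flt1, Tek, Kcnj8 and Rgs5 of the same list were instead highest in a control library.

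Many lysosomal promoters carry the element that the transcription factor TFEB and its relatives bind, whose core is CACGTG. RefSeq promoter sequences, from 250 bases before to 50 bases after the start, were listed for 53 of the 68 genes. CACGTG occurred in 14 of these 53 genes (26.4%) against 8.09% of the 27025 genes in the table. The longer form TCACGTG, sought on both strands and always containing CACGTG, occurred in 11 (20.8%) against 4.29%. Lamp1 held 4 copies of CACGTG, and Ctsa, Ctsd, Atp6v0b, Mcoln1 and Atg3 held 2 each. A match describes these letters in this window and does not show binding. The promoters below are shown because they put genes whose RNA was lower (Atp6v0b, Ctsz), higher (Ctsf) or not past the threshold (Ctsd, Atp6v1a) beside one another, with CACGTG in capitals. They are written 5′ to 3′ along the gene, from RefSeq's GRCm38.p6 table, and were placed on mm9, the build of the files, by exact match.
Ctsd (chr7:149573683-149573982, minus strand): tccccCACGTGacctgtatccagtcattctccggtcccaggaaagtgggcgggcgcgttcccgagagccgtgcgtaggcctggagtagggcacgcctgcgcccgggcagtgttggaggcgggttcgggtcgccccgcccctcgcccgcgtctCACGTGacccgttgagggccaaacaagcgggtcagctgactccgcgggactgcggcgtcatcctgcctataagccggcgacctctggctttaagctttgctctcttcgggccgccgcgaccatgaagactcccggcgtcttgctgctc
Atp6v1a (chr16:44139323-44139622, minus strand): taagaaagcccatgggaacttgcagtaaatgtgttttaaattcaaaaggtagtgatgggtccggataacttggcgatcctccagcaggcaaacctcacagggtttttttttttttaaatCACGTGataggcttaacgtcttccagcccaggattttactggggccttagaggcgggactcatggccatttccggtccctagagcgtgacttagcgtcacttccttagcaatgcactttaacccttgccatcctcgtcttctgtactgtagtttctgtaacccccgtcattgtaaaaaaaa
Atp6v0b (chr4:117559885-117560184, minus strand): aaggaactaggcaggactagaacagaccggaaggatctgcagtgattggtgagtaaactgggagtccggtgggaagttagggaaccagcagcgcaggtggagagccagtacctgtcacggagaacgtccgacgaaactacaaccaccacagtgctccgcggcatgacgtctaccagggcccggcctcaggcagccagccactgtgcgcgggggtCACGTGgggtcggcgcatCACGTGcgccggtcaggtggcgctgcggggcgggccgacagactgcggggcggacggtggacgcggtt
Ctsf (chr19:4854915-4855214, plus strand): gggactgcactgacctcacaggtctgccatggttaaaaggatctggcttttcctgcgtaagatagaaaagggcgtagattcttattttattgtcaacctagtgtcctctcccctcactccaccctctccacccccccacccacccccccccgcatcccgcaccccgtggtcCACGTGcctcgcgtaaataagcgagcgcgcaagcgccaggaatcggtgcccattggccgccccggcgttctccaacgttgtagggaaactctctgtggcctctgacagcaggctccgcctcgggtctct
Ctsz (chr2:174264491-174264790, minus strand): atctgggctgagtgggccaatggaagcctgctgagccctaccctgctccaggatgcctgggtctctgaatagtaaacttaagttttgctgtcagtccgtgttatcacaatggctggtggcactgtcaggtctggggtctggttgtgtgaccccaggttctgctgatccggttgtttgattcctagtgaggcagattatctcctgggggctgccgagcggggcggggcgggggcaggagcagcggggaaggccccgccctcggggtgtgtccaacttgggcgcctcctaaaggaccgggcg
Of the 14 genes with CACGTG all were tested, and 1 was higher (Ctsf) and 1 lower (Atp6v0b), or 14.3% against 20.4% of all genes tested, with a median log2 fold change of 0.02 and a range from -0.39 to 0.55. Of the 39 listed genes without it, 30 were tested, and 4 were higher and 5 lower, or 30%, with a median of 0.02 and a range from -1.08 to 1.63. The difference between these shares was not tested. TFEB's own gene, listed as Tcfeb, was at 9.29 and 9.36 CPM in the controls and at 8.17 and 7.66 CPM in the knockouts. The groups did not overlap, but the difference missed the threshold (log2 fold change -0.23 ± 0.16 SE, adjusted p = 0.332).

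As a whole the genes did not move one way. Of the 68, 55 had enough reads to be tested; 5 were higher in the knockouts, 7 were lower and 43 did not pass. That is 21.8% of those tested, against 20.4% of all 15011 genes tested (9.39% higher and 11% lower), so the share of calls was close to that of the whole table. The median log2 fold change of the 55 was 0.00, as was that of all genes, with a range from -1.08 to 1.63. Both knockout libraries lay above both controls for 15 of the 55 and below both for 19, against 32% and 32.8% of all genes, and the groups overlapped for 21. Only Ctsc, which fell, and Atp6v1c2, which rose, passed with at least a 2-fold change, or 2 of 55, against 6.77% of all genes. Few of the calls remained with a control library left out. Such a fit takes its spread from the knockout libraries alone. These differed more from each other than the controls did (chi-square per degree of freedom 26.9 against 14.2). Without the first control library 1 of the 12 called genes passed (Ctsc), and without the second 1 passed (Atp6v1c2), while 1039 and 908 of all genes were then called. Leaving out the first knockout library raised the number of calls and leaving out the second lowered it, among these genes as among all genes. All 12 kept their sign under each of the 12 alternatives tried.

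**Figure D1:**
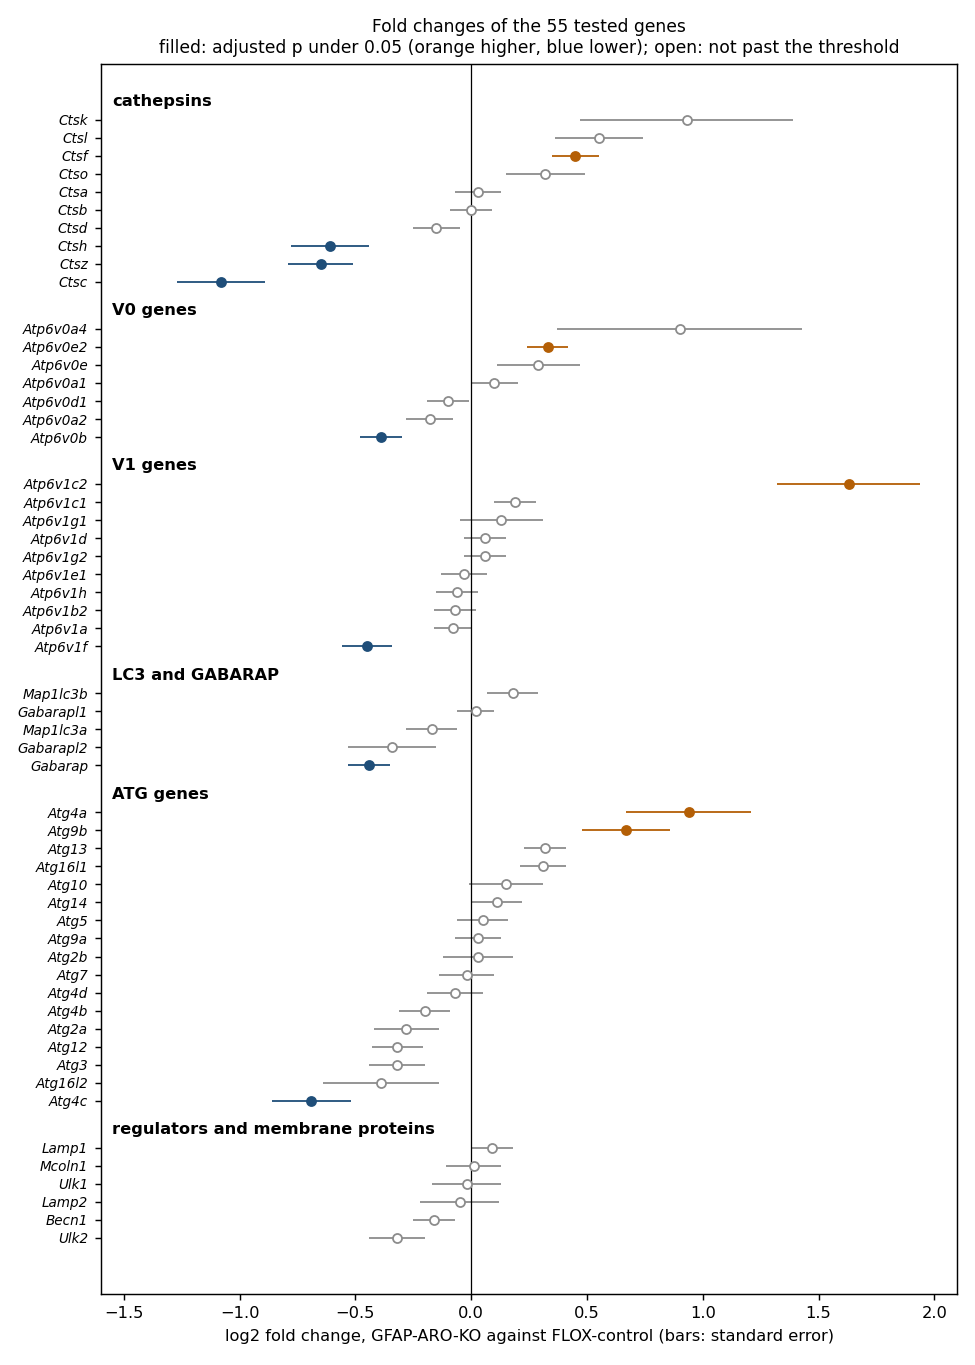
Log2 fold changes (x axis, GFAP-ARO-KO against FLOX-control) with standard errors for the 55 tested genes, grouped by role. Filled points passed the threshold (5 higher in orange, 7 lower in blue) and open points did not; the extremes are Ctsc at -1.08 and Atp6v1c2 at 1.63.

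Among the cathepsins, Ctsc, Ctsz and Ctsh were lower and Ctsf was higher in the knockouts, while the most abundant, Ctsb and Ctsd, did not pass. Of the 17 cathepsin genes 10 were tested, and 3 were lower, 1 was higher and 6 did not pass. That is 40% of only 10 genes, against 20.4% of all genes tested, and the median log2 fold change was 0.02. Ctsb, a cysteine protease and the most abundant, was at 765 and 773 CPM in the controls and at 754 and 789 CPM in the knockouts. The groups overlapped (log2 fold change 0.00 ± 0.09 SE, adjusted p = 0.975). Ctsd, the main aspartic protease of lysosomes, was at 538 and 606 CPM against 502 and 532 CPM. Both knockout values lay below both controls, but the difference did not reach the threshold (log2 fold change -0.15 ± 0.10 SE, adjusted p = 0.322). Ctsa, a serine carboxypeptidase that also protects lysosomal galactosidase and neuraminidase, lay between 107 and 116 CPM in all 4 libraries.

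Ctsc, Ctsz and Ctsh fell. Ctsc (chr7:95426595-95459398) encodes dipeptidyl peptidase 1, which activates the serine proteases of immune cell granules. It was at 14.4 and 15.8 CPM in the controls and at 6.07 and 8.37 CPM in the knockouts, with no overlap. It fell by 1.08 ± 0.19 on the log2 scale (2.11-fold lower, adjusted p = 0.0102; 0.0655 if the second control is left out). Ctsz (chr2:174252994-174264540), a carboxypeptidase whose shown promoter holds no CACGTG, was at 51.4 and 54.9 CPM against 30.1 and 37.9 CPM. Its groups did not overlap either, and it fell by 0.65 ± 0.14 (adjusted p = 0.0178; 0.0646 and 0.102 if the first or the second control is left out). Ctsh (chr9:89948990-89970927), an aminopeptidase, was at 12.9 and 14.9 CPM against 8.40 and 9.86 CPM. All knockout values were again below the controls, and Ctsh fell by 0.61 ± 0.17 (adjusted p = 0.0393); it did not pass without the first control (0.123), the second control (0.268) or the first of the knockouts (0.0527). Ctsc, Ctsz and Ctsh are expressed by microglia among other cells. The 14 microglia markers summed to 625 and 708 CPM in the controls and to 348 and 355 CPM in the knockouts. Both knockouts lay below both controls for 13 of the 14, against 32.8% of all genes tested. None was at 0 reads throughout, and the part of these markers in the lower cathepsins was not tested. Ctss, another microglial cathepsin that was not among the 68, was at 83.6 and 95.9 CPM against 66.6 and 78.2 CPM and did not pass (adjusted p = 0.109).

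Ctsf (chr19:4855129-4860912), a cysteine protease of the papain family that many tissues express, was the cathepsin that rose. It was at 47.9 and 52.4 CPM in the controls and at 67.7 and 69.1 CPM in the knockouts, without overlap. It rose by 0.45 ± 0.10 (1.36-fold, adjusted p = 0.0236; 0.175 and 0.0955 if the first or the second control is left out). Ctsl, a cysteine protease with broad substrates, was at 113 and 103 CPM in the controls and at 126 and 191 CPM in the knockouts. The second knockout library was far above the other 3, and Ctsl missed the threshold (log2 fold change 0.55 ± 0.19 SE, adjusted p = 0.0863). Leaving out the first knockout library gave 0.82 (adjusted p = 2.24e-04), leaving out the second gave 0.23, and DESeq2 called it with all 4 libraries (0.0105). Ctso, a cysteine protease of broad expression, and Ctsk, known for collagen breakdown in bone, also peaked in that library. Ctso was at 31.4 and 31.1 CPM against 32.3 and 45.8 CPM, and Ctsk at 1.73 and 1.19 CPM against 1.71 and 4.04 CPM. The second knockout library was the highest in both, neither passed (adjusted p = 0.219 and 0.191), and both passed without the first knockout library (0.00494 and 0.00446). The sum of the meningeal and choroid plexus markers was also highest in the second knockout library. In this list 1 of 10 was called (Ttr, higher), against 20.4% of all genes tested. Kl and Folr1 of this list were instead highest in the first knockout library. The 10 endothelial and mural markers summed to 166 and 179 CPM in the controls and to 171 and 373 CPM in the knockouts. Of these 10 markers 2 were called higher and 1 lower, against 9.39% and 11% of all genes tested. The largest differences between the knockout libraries were in Acta2 and Tagln. None of either list was at 0 reads throughout, and the part of these markers in Ctsl, Ctso and Ctsk was not tested.

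The other 7 cathepsin genes had too few reads. The placental genes Ctsj, Ctsm, Ctsq and Ctsr gave 0 reads in all libraries, which allows up to 0.0855 to 0.106 CPM in each library. Ctse, an aspartic protease, gave 10 and 16 reads in the controls against 2 and 2 in the knockouts; it was called lower only when no filter on low counts was used (log2 fold change -2.56, adjusted p = 0.0490). Ctsg, of granulocytes, and Ctsw, of cytotoxic lymphocytes, gave at most 9 reads in a library.

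**Figure D2:**
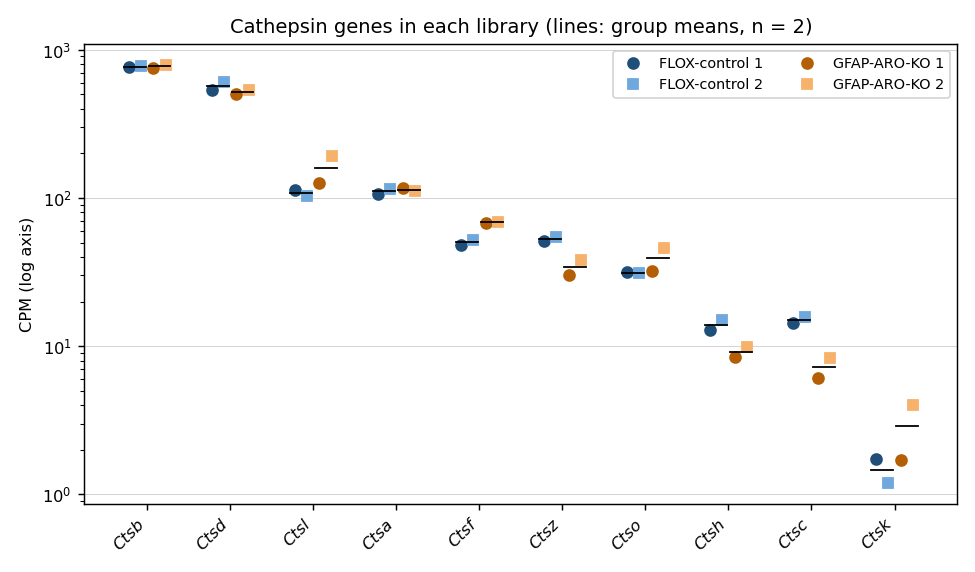
CPM (y axis, log) of the 10 tested cathepsin genes (x axis, by mean level) in each library, with lines at the mean of the 2 libraries of a group. Ctsc, Ctsz and Ctsh are lower and Ctsf is higher in both knockout libraries, while Ctsl, Ctso and Ctsk are high in the second knockout library.

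Most genes of the V-ATPase did not pass. Of 10 V0 genes 7 were tested, with 1 higher and 1 lower (28.6%). Of 13 V1 genes 10 were tested, with 1 higher and 1 lower (20%). Among all genes tested the share called was 20.4%. The medians of the log2 fold changes were 0.10 for the V0 and 0.01 for the V1 genes. Summed over the V1 genes, levels were 3880 and 3791 CPM in the controls against 3809 and 3781 CPM in the knockouts, with overlapping groups. The V0 genes summed to 1737 and 1800 CPM against 1830 and 1887 CPM, both knockouts being above the controls. Atp6v0c added almost nothing to this sum, at 0 to 4 reads in a library. Of the tested V0 genes, Atp6v0e2, Atp6v0e and Atp6v0a4 lay above both controls in both knockouts, and Atp6v0b, Atp6v0d1 and Atp6v0a2 below. Atp6v1b2, the B2 subunit of the catalytic hexamer, was the most abundant by read count, at 1058 and 1031 CPM against 1050 and 943 CPM. It overlapped between the groups (log2 fold change -0.07 ± 0.09 SE, adjusted p = 0.634). Atp6v0a1, the a1 subunit of the proton channel that nerve terminals use, was the most abundant V0 gene, at 650 and 738 CPM against 715 and 769 CPM (log2 fold change 0.10 ± 0.10 SE, adjusted p = 0.522). Its groups overlapped as well. Atp6v1a, the subunit that hydrolyses ATP, was at 849 and 829 CPM against 782 and 810 CPM, and its shown promoter holds 1 CACGTG; it missed the threshold (log2 fold change -0.08 ± 0.08 SE, adjusted p = 0.557).

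Of the pump genes Atp6v0b and Atp6v1f fell. Atp6v0b (chr4:117556931-117559938) encodes a proteolipid of the proton-carrying ring, and its shown promoter holds CACGTG in 2 places. It was at 237 and 232 CPM in the controls and at 181 and 176 CPM in the knockouts, far apart compared with the spread inside each group. It fell by 0.39 ± 0.09 (adjusted p = 0.0232; 0.149 and 0.121 if the first or the second control is left out). Atp6v1f (chr6:29417718-29420512), a subunit of the central rotor, was at 71.2 and 64.2 CPM against 52.0 and 47.0 CPM. It fell by 0.45 ± 0.11 (adjusted p = 0.0293; 0.211, 0.0916 and 0.0621 if the first control, the second control or the second knockout is left out). Exons of Atp6v0b overlap those of a predicted gene, Gm12841, on the opposite strand by 243 bases, and the strand setting of the counting was likewise not given, so reads of the overlap cannot be assigned to either.

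Atp6v0e2 and Atp6v1c2, each a form of a subunit that a second gene also encodes, were higher. Atp6v0e2 (chr6:48487568-48491797), the e2 form that is prominent in brain, was at 479 and 459 CPM in the controls and at 583 and 596 CPM in the knockouts. The groups were well separated, and it rose by 0.33 ± 0.09 (1.26-fold, adjusted p = 0.0362). The call was lost without the first control (0.142), the second control (0.228) or the second knockout library (0.0690). Atp6v1c2 (chr12:17291527-17336165), the C2 form best known from kidney and lung, gave few reads, with 31 and 39 in the controls against 100 and 107 in the knockouts. That is 0.926 and 1.19 CPM against 2.85 and 3.79 CPM, and it rose by 1.63 ± 0.31 (3.10-fold, adjusted p = 0.0123; 0.0775 if the first control is left out). Its exons overlap those of Pdia6 on the opposite strand by 50 bases.

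Levels per length, as reads per kilobase of annotated exon and library size (RPKM), show which form of each subunit the counted RNA came from. Of the C forms, Atp6v1c2 made up 0.308% and 0.402% in the controls against 0.837% and 1.10% in the knockouts, so Atp6v1c1, at 143 to 164 RPKM, remained the main form in all libraries. Atp6v0e2 made up 98.1% to 98.6% of the e forms, with no separation of the groups. Atp6v0e, the other form, also lay above the controls in both knockouts (14.1 and 14.7 CPM against 14.8 and 20.5 CPM, adjusted p = 0.292). Atp6v0a1 made up 91.4% and 91.8% of the a forms in the controls against 92.6% and 93.3% in the knockouts. Atp6v0a2, a form of Golgi and endosomes, made up 8.55% and 8.13% against 7.30% and 6.62%, a share that was not tested; its own level did not pass (adjusted p = 0.242). Atp6v1g2, the neuronal G form, made up 93.1% to 95.0% of the counted G forms, a share that may be too high. Of the stretches of read length in Atp6v1g1, 57.6% also occur elsewhere in the genome, against 0% in Atp6v1g2. Reads that aligned equally well in several places were assigned to no gene, so Atp6v1g1 may be undercounted. Forms known from kidney, osteoclasts or testis (Atp6v0a4, Atp6v0d2, Atp6v1b1, Atp6v1e2 and Atp6v1g3) stayed at or below 0.141 RPKM in each library. Of these Atp6v0a4 alone could be tested, at 6 and 14 reads in the controls against 18 and 18 in the knockouts, and did not pass (adjusted p = 0.258).

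**Figure D3:**
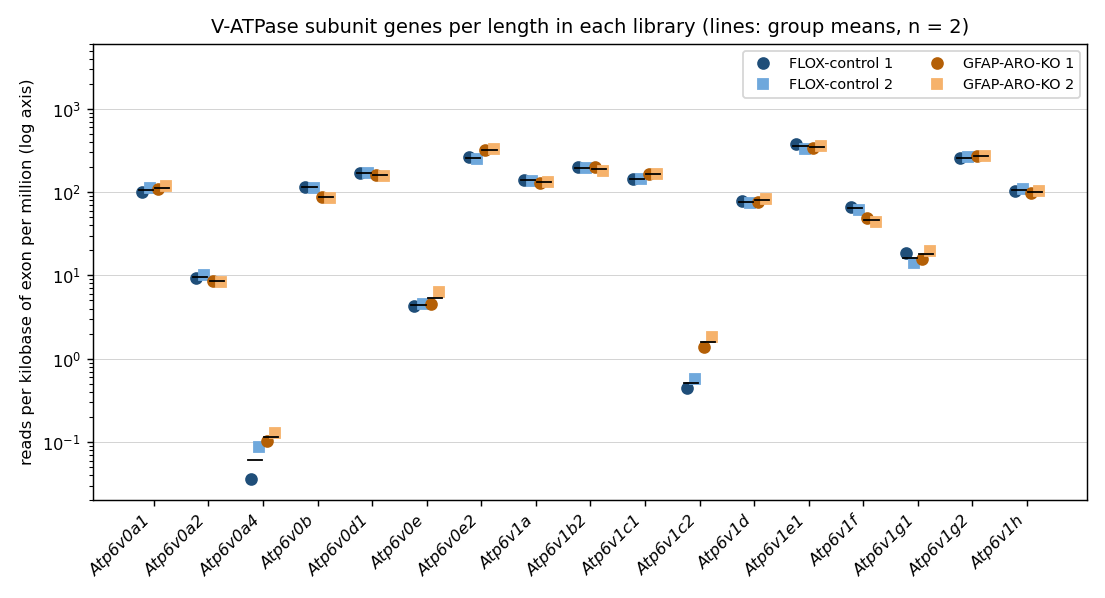
RPKM (reads per kilobase of exon, scaled by library size; y axis, log) of 17 tested V-ATPase subunit genes in each library, with lines at group means. Atp6v1c1 and Atp6v0e2 lie far above the other forms of their subunits, Atp6v0b and Atp6v1f are lower and Atp6v0e2 and Atp6v1c2 higher in both knockout libraries.

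For some of these genes the counts cover only part of the RNA. Reads that aligned equally well in several places made up 35.7% to 37.4% of all entries and were assigned to no gene. Atp6v0c, the main proteolipid of the proton-carrying ring, gave 4 and 0 reads in the controls against 1 and 0 in the knockouts. Of the 1134 windows of 50 bases in its longest coding transcript, 961 (84.7%) also occur exactly elsewhere on the mm9 chromosomes, all of them at chr6:37755982-37757091, where the predicted gene Gm15487 lies, and 186 also at chr7:4364166-4365035. Its first 50 coding bases are shown because they match the genome at 2 places, of which 1 is outside the gene (chr17:24300833-24306647, minus strand).
Atp6v0c, coding bases 1 to 50: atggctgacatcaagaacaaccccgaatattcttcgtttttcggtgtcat
The remaining windows of Atp6v0c occur nowhere else on these chromosomes, and whether the repeats account for reads this few was not tested. With most windows repeated, the reads of Atp6v0c were not taken as its level. Atp6v0c-ps2, also among the members, gave 0 reads in all libraries. Repeated windows made up 63.6% in Atg4a, 57.6% in Atp6v1g1, 49.3% in Gabarapl2, 40.4% in Map1lc3b and 29.2% in Atp6v1f, so the levels and differences of these genes are uncertain. In the other members with a coding transcript, the share was at most 10.6% (Ctsm, a gene without reads), and at most 7.78% among those tested (Ulk1). Exons of Ctsb, Ctsa, Ctsd, Lamp1 and Atg4d overlap those of neighbouring genes by 769, 819, 163, 177 and 791 bases, so reads there were uncertain too.

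**Figure D4:**
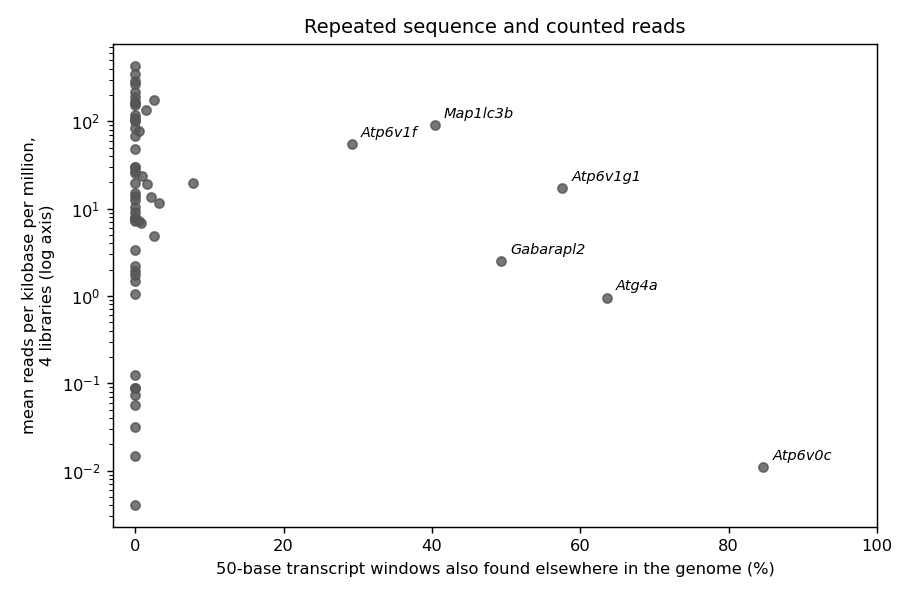
Mean RPKM over the 4 libraries (y axis, log) against the percentage of 50-base transcript windows found elsewhere in the genome (x axis), 1 point per gene with reads. Atp6v0c, at 84.7%, lies far below the other V-ATPase genes of the main forms; Atg4a, Atp6v1g1, Gabarapl2, Map1lc3b and Atp6v1f also share many windows.

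Among the genes of the small proteins that are attached to autophagosome lipids, 1 of 5 passed, or 20% against 20.4% of all genes tested. Gabarap (chr11:69804645-69808453) was at 176 and 180 CPM in the controls and at 127 and 135 CPM in the knockouts, with groups far apart. It fell by 0.44 ± 0.09 (1.36-fold lower, adjusted p = 0.0182; 0.0973 and 0.119 if the first or the second control is left out), and 0 of its 1302 transcript windows occur elsewhere. Gabarapl1, the most abundant of the family in these libraries, was at 750 and 761 CPM against 751 and 778 CPM, and its groups overlapped (log2 fold change 0.02 ± 0.08 SE, adjusted p = 0.906). Map1lc3a and Map1lc3b, the LC3 forms most used as autophagosome markers, did not pass. Map1lc3a was at 160 and 138 CPM against 134 and 131 CPM (adjusted p = 0.289), and Map1lc3b at 155 and 137 CPM against 153 and 177 CPM (adjusted p = 0.294). Gabarapl2 was at 6.72 and 6.21 CPM against 5.47 and 4.68 CPM (adjusted p = 0.236), with many of its windows repeated. Summed over the 5 genes, levels overlapped, with 1247 and 1222 CPM in the controls against 1171 and 1226 CPM in the knockouts.

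Of the 17 Atg genes 2 rose, 1 fell and 14 did not pass, with a median log2 fold change of 0.03. That is 17.6% called, against 20.4% of all genes tested. The proteases of the Atg4 family cut LC3 and GABARAP proteins so that they can be attached to lipid, and release them again. Atg4c (chr4:98860625-98926478) was at 50.4 and 46.8 CPM in the controls and at 35.2 and 24.8 CPM in the knockouts, both below the controls but far from each other. It fell by 0.69 ± 0.17 (adjusted p = 0.0289; 0.138 and 0.0946 if the first or the second control is left out). Atg4a (chrX:137491446-137598813) gave 58 and 57 reads in the controls against 102 and 108 in the knockouts, or 1.73 and 1.74 CPM against 2.91 and 3.83 CPM. It rose by 0.94 ± 0.27 (adjusted p = 0.0451), but did not pass with limma-voom (0.0563), with DESeq2 (0.0953) or without the first control (0.193), the second control (0.196) or the second knockout library (0.0965). Of its windows 63.6% recur in 1 copy at chr3:103447955-103449991, annotated as Atg4a-ps (a pseudogene by its name), so its level is uncertain. Atg4b, the most active enzyme of the family, was at 90.3 and 85.3 CPM against 82.4 and 70.6 CPM, and Atg4d, the fourth member, at 28.5 and 26.2 CPM against 25.5 and 26.5 CPM; neither passed (adjusted p = 0.241 and 0.686).

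Atg9b (chr5:23889999-23897961), a rarer relative of the lipid scramblase Atg9a, gave 164 and 185 reads in the controls against 275 and 254 in the knockouts. At 4.90 and 5.66 CPM against 7.83 and 9.01 CPM the groups did not overlap, and it rose by 0.67 ± 0.19 (adjusted p = 0.0433). The call was lost with DESeq2 (0.0601) and without the first control (0.260), the second control (0.152) or the second knockout library (0.0789). Its exons overlap those of Nos3 on the opposite strand by 294 bases. Atg9a, the most abundant Atg gene, was at 199 and 192 CPM against 212 and 186 CPM, with overlapping groups (log2 fold change 0.03 ± 0.10 SE, adjusted p = 0.884).

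Near the threshold were Atg13, just outside it with an adjusted p of 0.05001, and Atg4a just inside. Atg13, which joins the ULK kinases in the complex that starts autophagy, was at 98.4 and 101 CPM in the controls and at 127 and 121 CPM in the knockouts, with no overlap (log2 fold change 0.32 ± 0.09 SE). It passed in 6 of the 12 alternatives, among them DESeq2 (adjusted p = 0.0366). Atg16l1, which with Atg5 and Atg12 forms the complex that attaches LC3, was at 63.1 and 60 CPM against 75.6 and 77.2 CPM (adjusted p = 0.0598). Its partner Atg12 lay the other way, at 79.1 and 70.2 CPM against 61.6 and 58.1 CPM (adjusted p = 0.0736), as did Atg3, the enzyme that passes LC3 to lipid, at 49.3 and 48.8 CPM against 42.2 and 36.5 CPM (adjusted p = 0.0898). In each of these the groups did not overlap, yet the difference was too small for the spread to pass. Atg5, Atg7, which activates Atg12 and LC3, and Atg10, which passes Atg12 to Atg5, had overlapping groups and log2 fold changes of 0.05, -0.02 and 0.15. The remaining Atg genes were Atg14 of the lipid kinase complex (0.11), the lipid carriers Atg2a (-0.28) and Atg2b (0.03), and Atg16l2 (-0.39), with adjusted p from 0.179 to 0.909.

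**Figure D5:**
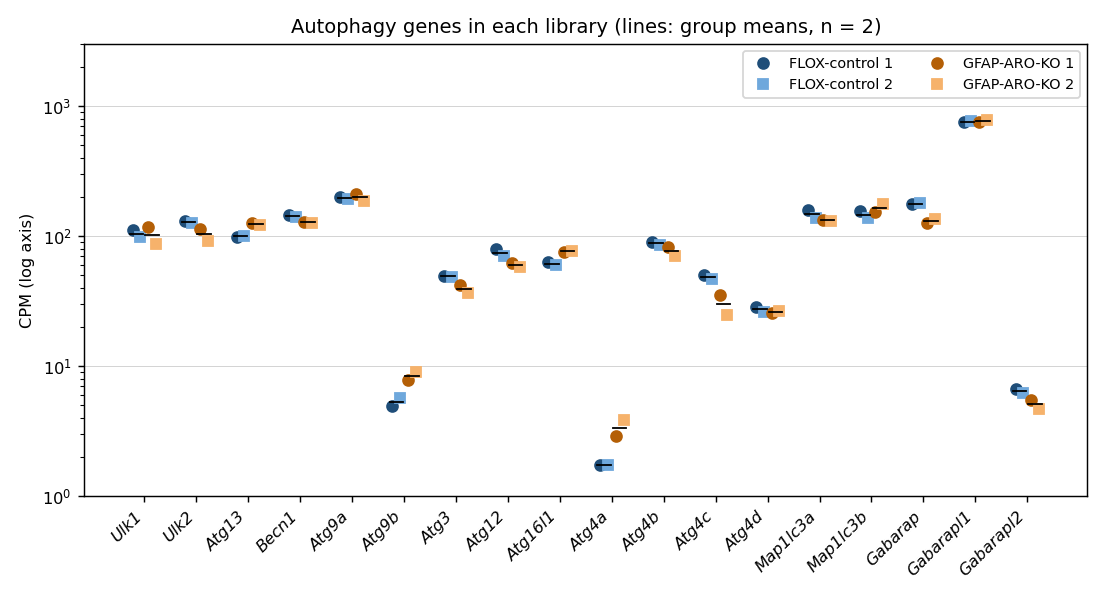
CPM (y axis, log) of 18 autophagy genes in each library, from the ULK kinases to the LC3 and GABARAP proteins, with lines at group means. Gabarap and Atg4c are lower and Atg4a and Atg9b higher in both knockout libraries, and the abundant Gabarapl1 lies between 750 and 778 CPM in all 4.

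None of the 6 regulators and membrane proteins passed with edgeR, against 20.4% of all genes tested. Among the 6, 1 had an unadjusted p under 0.05 (Ulk2), and limma-voom and DESeq2 called 0. Lamp1, the most abundant, and Lamp2 are the heavily glycosylated proteins that line the lysosomal membrane. Lamp1 was at 381 and 383 CPM in the controls and at 385 and 426 CPM in the knockouts (log2 fold change 0.09 ± 0.09 SE, adjusted p = 0.539). Lamp2 was at 79.8 and 74.3 CPM against 61.6 and 87.8 CPM, the knockout libraries lying on either side of the controls (log2 fold change -0.05 ± 0.17 SE, adjusted p = 0.868). Mcoln1, the calcium channel of the lysosomal membrane, was at 56.2 and 49.8 CPM against 56.3 and 50.3 CPM (log2 fold change 0.01 ± 0.12 SE, adjusted p = 0.963). Becn1, the scaffold of the lipid kinase complex, was at 146 and 140 CPM against 129 and 126 CPM, with both knockouts below the controls (log2 fold change -0.16 ± 0.09 SE, adjusted p = 0.236). Its exons overlap those of Cntd1 by 3104 bases. The kinase genes Ulk1 and Ulk2 were both lowest in the second knockout library. Ulk1 was at 111 and 98.2 CPM against 118 and 87.5 CPM (adjusted p = 0.931), and Ulk2 at 131 and 127 CPM against 114 and 92.3 CPM (log2 fold change -0.32 ± 0.12 SE, adjusted p = 0.0985; 0.00612 if the first knockout is left out).

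Other genes of the lysosome and of autophagy, in 8 lists outside the 68, are given for comparison. Across all genes tested, 9.39% were higher and 11% lower, which is the background for the counts of each list below. Of the 134 tested genes of these lists, 9 were higher and 12 lower, or 15.7% against 20.4% of all genes. Their median log2 fold change was 0.06. Leaving out the first or the second control library left 6 or 4 calls among them, and leaving out the first or the second knockout library 40 or 19. Of 36 lysosomal hydrolases 4 rose (Glb1, Idua, Fuca1 and Naglu, which remove sugars from glycoproteins, glycolipids and glycosaminoglycans) and 4 fell, among them Tpp1, with a median of 0.05. Tpp1, a peptidase, was at 82.6 and 83.0 CPM against 61.5 and 57.3 CPM and fell by 0.48 ± 0.10 (adjusted p = 0.0166; 0.103 and 0.107 with the first or the second control left out). Of 20 tested lysosomal membrane and transport genes 2 rose and 2 fell. Cd63, a tetraspanin of late endosomes and lysosomes, was at 38.1 and 36.8 CPM against 16.5 and 17.6 CPM and fell by 1.14 ± 0.12 (adjusted p = 0.00201). Slc11a2, a transporter of iron, rose by 0.52 ± 0.10 (adjusted p = 0.0143; 0.0929 and 0.0986 with either control left out).

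Of 8 tested inhibitors of cathepsins 1 rose and 1 fell. Cst7, cystatin F, which inhibits cathepsin C in immune cells, gave 26 and 49 reads in the controls against 1 and 3 in the knockouts and fell by 4.08 ± 0.74 (adjusted p = 0.00962), a size that so few reads fix poorly. Ctla2a, an inhibitor of the cathepsin L type, was at 9.17 and 6.03 CPM against 18.1 and 18.3 CPM and rose by 1.26 ± 0.20 (adjusted p = 0.00747). Of the 9 tested genes that sort lysosomal enzymes by mannose 6-phosphate 2 fell, the adaptor genes Gga3 (by 0.69 ± 0.13, adjusted p = 0.0118) and Gga1 (by 0.55 ± 0.13, adjusted p = 0.0225). Neither passed with a control left out (Gga3 at 0.0506 and 0.0632, Gga1 at 0.105 and 0.101). Of 21 tested genes of the TFE factors and of mTORC1 at the lysosome 3 fell, each a subunit of Ragulator, the complex that holds mTORC1 on the lysosome. Hbxip (now Lamtor5) was at 19.9 and 19.2 CPM against 11.3 and 10.7 CPM and fell by 0.83 ± 0.14 (adjusted p = 0.00805; 0.0654 and 0.0553 with either control left out). The Lamtor4 gene, listed as 0910001L09Rik, fell by 0.48 ± 0.13 (adjusted p = 0.0408; 0.147 and 0.231 with either control and 0.0585 with the first knockout left out) and Lamtor2 by 0.38 ± 0.11 (adjusted p = 0.0472, a call lost in 7 of the 12 alternatives, with adjusted p there from 0.055 to 0.285). The other 2 Ragulator genes did not pass: Lamtor1, listed as 2400001E08Rik, had a log2 fold change of -0.11 ± 0.10 and Lamtor3 of 0.17 ± 0.14. Lamtor1, Lamtor2 and Lamtor3 were singled out after their values were seen.

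Of 19 tested other core autophagy genes 1 rose, Stx17, a syntaxin of completed autophagosomes, at 28.9 and 23.8 CPM against 45.4 and 63.5 CPM (log2 fold change 1.04 ± 0.18 SE, adjusted p = 0.0110; 0.0615 if the second control is left out). Uvrag, a partner of Becn1, had a fold change of 0.30 ± 0.11 on the log2 scale, which missed the threshold (adjusted p = 0.0884). Of 12 autophagy receptors 1 rose, Sqstm1, which encodes p62 and tethers ubiquitinated cargo, at 545 and 530 CPM against 692 and 682 CPM (log2 fold change 0.35 ± 0.09 SE, adjusted p = 0.0269; 0.127 and 0.173 if the first or the second control is left out). Fundc1, a receptor on mitochondria, missed the threshold (log2 fold change -0.33 ± 0.12, adjusted p = 0.0957). Of 9 accessory V-ATPase genes and subunits outside the symbol rule, the main edgeR fit, limma-voom and DESeq2 called 0. With a block for the replicate number, edgeR called 1 lower. In the main fit 3 had an unadjusted p under 0.05. Among these were Dmxl2, a regulator of pump assembly, at -0.34 ± 0.12 on the log2 scale (adjusted p = 0.0826), and Tcirg1, the a3 subunit, with -0.61 ± 0.22 (adjusted p = 0.0873).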

How the data were processed

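Per the labels' protocols, total RNA of the hippocampus was made into TruSeq libraries and read as 50 bp single-end reads. Per the submitters' processing notes, the authors used bcl2fastq, TopHat2 2.0.8b with mm9, and HTSeq. The authors deposited raw read counts per gene symbol for each library. The HTSeq version, annotation and strand setting were not given in the sources used here. Left out were 5 tallies that name no gene (45.2% to 47.3% of entries).

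CPM was computed with TMM factors (0.9837 to 1.01). Genes were kept by filterByExpr (minimum count 10, minimum total count 15), leaving 15011. Genotypes were compared with edgeR 4.0.16 under R 4.3.3 (glmQLFit with robust and legacy=FALSE, then glmQLFTest) on the 4 libraries. The fit was also run on simulated counts with known fold changes. That run held no library that stood apart, so it gives no error rate for these data. The standard error is the absolute log2 fold change over the root of F. Limits for a count of 0 rest on 3 counts and cover counting error only. Exon lengths and positions come from NCBIM37 with GENCODE vM1; annotated exons may differ from those the authors counted. The 12 alternatives were RLE and upper-quartile factors, no filter, a filter of CPM at least 1 in at least 2 libraries, limma-voom (limma 3.58.1), DESeq2 1.42.0, legacy=TRUE, a block for the replicate number, and leaving out each library.

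The members and lists were chosen with earlier results of these data known. Named were all members past the threshold, the most abundant member of each role, Tcfeb, Mcoln1, Lamp1, Lamp2, Becn1, Ulk1, Ulk2, Ctsb, Ctsd and Ctsl, and the 2 tested genes with the smallest p of each list; other members were named after their values were seen. Some genes of the hydrolase list are not reported here by name. Of the cell marker lists the 2 genes with the smallest p were Tmem119 and Cx3cr1 (microglia, log2 fold changes -1.50 and -1.42), Gfap and Aqp4 (astrocytes, -0.94 and -1.40), Neurod6 and Mtap2 (neurons, -0.67 and -0.35), Ermn and Sox10 (oligodendrocytes, -1.96 and -1.07), Pecam1 and Flt1 (vessels, 1.05 and -0.86; 2 of 10 higher and 1 lower), Ttr and Folr1 (meninges and choroid plexus, 1.93 and 0.87) and Cd52 and Ptprc (leukocytes, -2.37 and -0.98; 1 of 3 tested lower).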

Additional observations from a re-analysis of the deposited data

How the results depend on the processing

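Among all genes 908 to 4816 were called with a library left out, against 3061 with all 4, and among the 68 genes 1 to 21 against 12 (0 to 10 higher against 5, 0 to 11 lower against 7); among the genes of the other lists it was 4 to 40 against 21. With the remaining alternatives 11 to 14 of the 68 were called. In a fit without 1 library the lone library of its group is assumed to vary like the other group. Called genes lost without a control library then had adjusted p from 0.0646 to 0.268. Of the 12 called genes 9 passed in every alternative that left out no library; Atg4a, Atg9b and Atp6v0e2 did not. With the replicate number as a block 11 of the 68 genes and 3194 of all genes were called, and Atp6v0e2 did not pass (0.0519). Deviations of libraries with the same number had a correlation of -0.02 over genes. A single value from groups of 2 libraries cannot decide whether samples with the same number were paired. The sign of genes near 0 changed with a library left out: log2 fold changes ran from -0.31 to 0.19 for Lamp2, -0.26 to 0.19 for Ulk1, -0.19 to 0.23 for Atg2b, -0.11 to 0.07 for Atg7, -0.11 to 0.07 for Atp6v1e1, -0.01 to 0.08 for Ctsa, -0.08 to 0.11 for Mcoln1, -0.05 to 0.36 for Atp6v1g1, -0.07 to 0.12 for Atg9a, -0.15 to 0.02 for Atp6v1b2 and -0.02 to 0.04 for Ctsb. With upper-quartile factors Ulk1 and Atg7 were at 0.00, on the other side of 0. Groups of 2 libraries limit all of these tests, and genes with few reads, such as Atg4a and Atp6v1c2, also by depth.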
